A study of Homo sapiens with 27 samples.

Results

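The cancer testis antigens of the MAGE (melanoma antigen) family and PRAME were followed in 3 prostate cancer cell lines with and without a CRISPR guide against RIPK2. The members were taken by symbol: MAGEB2, MAGEA1, MAGEA3, MAGEA4, MAGEA6, MAGEA10, MAGEC1, MAGEC2 and PRAME, 9 of the 27546 symbols listed in the 3 count tables together. The family was chosen by measured values, namely the near loss of MAGEB2 counts in DU145 with each RIPK2 guide against control, so its DU145 values, and those of the other members against the DU145 control, are given as a description without a test. In 22Rv1, 8 of the 9 members had a row, in DU145 6 and in PC3 5, and every row of each table held at least 1 read over its 9 libraries. After the filter on low counts 5 members were tested in 22Rv1, 2 in DU145 and 3 in PC3.

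Cancer testis genes are expressed in male germ cells and are silent in most other adult tissues, where their promoters are methylated, and many tumours express some of them again. Type I MAGE genes lie in clusters on the X chromosome, and their proteins bind RING ubiquitin ligases and steer them to new substrates: MAGE-A3 and MAGE-A6 act with TRIM28 on the catalytic subunit of AMP-activated kinase. PRAME lies on chromosome 22, is the substrate receptor of a cullin 2 ubiquitin ligase and was described as a repressor of retinoic acid receptor signalling.

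Strand-specific mRNA libraries of 27 samples were sequenced as paired reads. Each line had 3 groups of 3 libraries. The 22Rv1 groups carried control gRNA 1 (genotype labelled WT), RIPK2 gRNA 1 or RIPK2 gRNA 10 (both labelled RIPK2 knockout); the DU145 and PC3 groups carried control gRNA 1, RIPK2 gRNA 2 or RIPK2 gRNA 10. RIPK2 is the kinase downstream of the NOD receptors. 22Rv1 is a prostate carcinoma line, DU145 comes from a brain metastasis and PC3 from a bone metastasis of prostate cancer. Neither the clonal or mixed origin of the edited cells nor the kind of replicate is given in the sources used here, so p-values measure the spread between these libraries, which may be technical, and each group stands for a single guide.

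Libraries held 17958558 to 20650819 counted reads, and 3 reads in a library correspond to 0.144 to 0.178 CPM (CPM are counts scaled by library size and the TMM factors of edgeR). The RIPK2 mRNA was at 52.0% and 32.2% of the control level in 22Rv1 with gRNA 1 and gRNA 10, at 27.9% and 81.9% in DU145 with gRNA 2 and gRNA 10, and at 34.2% and 45.0% in PC3. The DU145 gRNA 10 value did not pass (edgeR BH-adjusted p = 0.0614; BH stands for Benjamini-Hochberg adjustment over all genes tested in the line). An edited gene can keep its mRNA, so this level does not measure the loss of protein. The third 22Rv1 gRNA 1 library stood apart, with 16.65% mitochondrial reads against 0.515% to 2.10% in the other 22Rv1 libraries, and the third DU145 gRNA 2 library had the lowest scaling factor (0.902). The 7 epithelial markers summed to 904 to 3090 CPM in every library (EPCAM group means of 32.1 to 219.5 CPM), with CLDN7 low in PC3 (1.76 to 2.15 CPM) and CLDN4 low in the DU145 control and gRNA 10 groups (4.26 and 2.85 CPM), and the leukocyte marker PTPRC had 0 to 6 reads per library. DDX4, a germ cell marker, had 0 to 4 reads in any library. Some other germ cell markers had more. MAEL had 4 to 11 reads in DU145 with gRNA 10 against 1 to 3 in the control. In PC3, SYCP3 had 1 to 6 reads with gRNA 10 and DAZL 0 to 5 with gRNA 2. TEX101 had 0 to 1 reads in DU145.

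In RefSeq (GRCh38.p14) MAGEB2 lies at chrX:30215563-30220089, far from the other MAGE members. MAGEC1 (chrX:141903894-141909374) and MAGEC2 (chrX:142202342-142205290) are neighbours. The MAGEA members follow in Xq28: MAGEA4 (chrX:151912474-151925170), MAGEA10 (chrX:152133310-152138577), MAGEA3 (chrX:152698794-152702347), MAGEA6 (chrX:152766136-152769689) and MAGEA1 (chrX:153179284-153183880). PRAME lies at chr22:22547701-22559265. Distances between genes are taken between their lower coordinates, whichever strand they lie on. MAGEA3 and MAGEA6 are near-identical copies: 27.9% of the 150-base stretches of their transcripts occur in both, and how such reads were counted is not given, so the split of counts between them is uncertain. MAGEA10 shared 12.3% of its stretches with the read-through gene MAGEA10-MAGEA5. For MAGEB2, MAGEA1, MAGEA4, MAGEC1, MAGEC2 and PRAME no such stretch of this length occurred in another gene.

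The stretches before the start sites are shown for the members with the largest changes or the highest levels. Each is the 250 bases upstream of the annotated start, 5′ to 3′ on the strand of the gene, from RefSeq (GRCh38.p14); capitals mark GGATGT or its reverse complement, a 6-base word that holds the GGAT core bound by ETS transcription factors and that was chosen after the sequences were read.
MAGEB2 (chrX:30215313-30215562, plus strand): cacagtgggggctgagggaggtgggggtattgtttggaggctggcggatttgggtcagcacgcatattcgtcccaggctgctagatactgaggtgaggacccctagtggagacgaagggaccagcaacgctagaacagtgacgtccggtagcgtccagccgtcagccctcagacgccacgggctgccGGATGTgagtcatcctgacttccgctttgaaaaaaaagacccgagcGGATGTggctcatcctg
MAGEA3 (chrX:152698544-152698793, plus strand): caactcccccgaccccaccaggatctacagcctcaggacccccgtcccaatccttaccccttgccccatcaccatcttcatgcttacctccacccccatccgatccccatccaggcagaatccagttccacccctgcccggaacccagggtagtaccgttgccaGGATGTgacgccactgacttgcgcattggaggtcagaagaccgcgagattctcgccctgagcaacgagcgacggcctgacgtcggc
MAGEA4, the outermost of 5 start sites (chrX:151912224-151912473, plus strand): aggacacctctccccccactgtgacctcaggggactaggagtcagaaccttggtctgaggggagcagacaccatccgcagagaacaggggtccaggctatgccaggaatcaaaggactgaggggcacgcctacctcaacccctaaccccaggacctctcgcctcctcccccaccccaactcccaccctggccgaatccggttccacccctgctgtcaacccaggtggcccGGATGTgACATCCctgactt
PRAME, the outermost of 3 start sites (chr22:22559266-22559515, minus strand): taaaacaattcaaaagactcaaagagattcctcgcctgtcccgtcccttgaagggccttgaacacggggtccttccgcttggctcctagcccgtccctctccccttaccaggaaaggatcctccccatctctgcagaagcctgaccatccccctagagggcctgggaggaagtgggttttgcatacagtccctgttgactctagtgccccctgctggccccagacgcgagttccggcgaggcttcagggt
The MAGEB2 stretch held 2 matches and the MAGEA3 stretch 1. The MAGEA6 stretch (chrX:152769690-152769939, minus strand) differed from that of MAGEA3 at 0 of 250 bases. Of the 9 members 7 had an entry in the promoter table, and all 7 held the word at 1 start site or more (11 of 13 start sites; the outer 2 of PRAME held none). The word occurred in 8.43% of all 35116 promoter stretches of this length and at 12 of 20 start sites of other type I MAGE genes. MAGEB2, MAGEA3 and MAGEA6 each had 15 CpG dinucleotides there, against a median of 11 over all stretches, of which 42.9% had as many or more. MAGEC1 had 11, MAGEC2 6, the 3 PRAME start sites 9, 8 and 4, and the 5 MAGEA4 start sites 6 to 14. A match describes letters and is no evidence of binding.

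Each line expressed its own set of members, and PRAME alone was expressed in all 3. Levels between genes were compared per exon length, in RPKM (CPM divided by the exon length in kilobases). In control 22Rv1, MAGEA3 was at 87.4 ± 1.16 RPKM (mean ± SD, n = 3), MAGEA1 at 81.7 ± 3.83, MAGEA4 at 75.1 ± 2.35, MAGEA6 at 54.0 ± 2.84 and PRAME at 8.18 ± 0.574. By this length the 3 libraries of neighbours in that order did not overlap. The length joins all annotated exons of a gene, 3081 bases for MAGEA4 and 1788 for MAGEA3. The longest transcripts of MAGEA4 and MAGEA3 are of like length, with 1624 and 1613 stretches of 150 bases. The place of MAGEA4 in the order therefore depends on the length used. In control DU145, MAGEB2 stood at 16.4 RPKM and PRAME at 10.1 RPKM, and the 4 other listed members had 0 to 2 reads per library. In control PC3, PRAME stood at 15.4 RPKM, MAGEA3 at 0.751 RPKM and MAGEA6 at 0.0624 RPKM. As these are bulk samples, fewer expressing cells and less RNA per cell cannot be told apart at any of these levels.

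**Figure D1:**
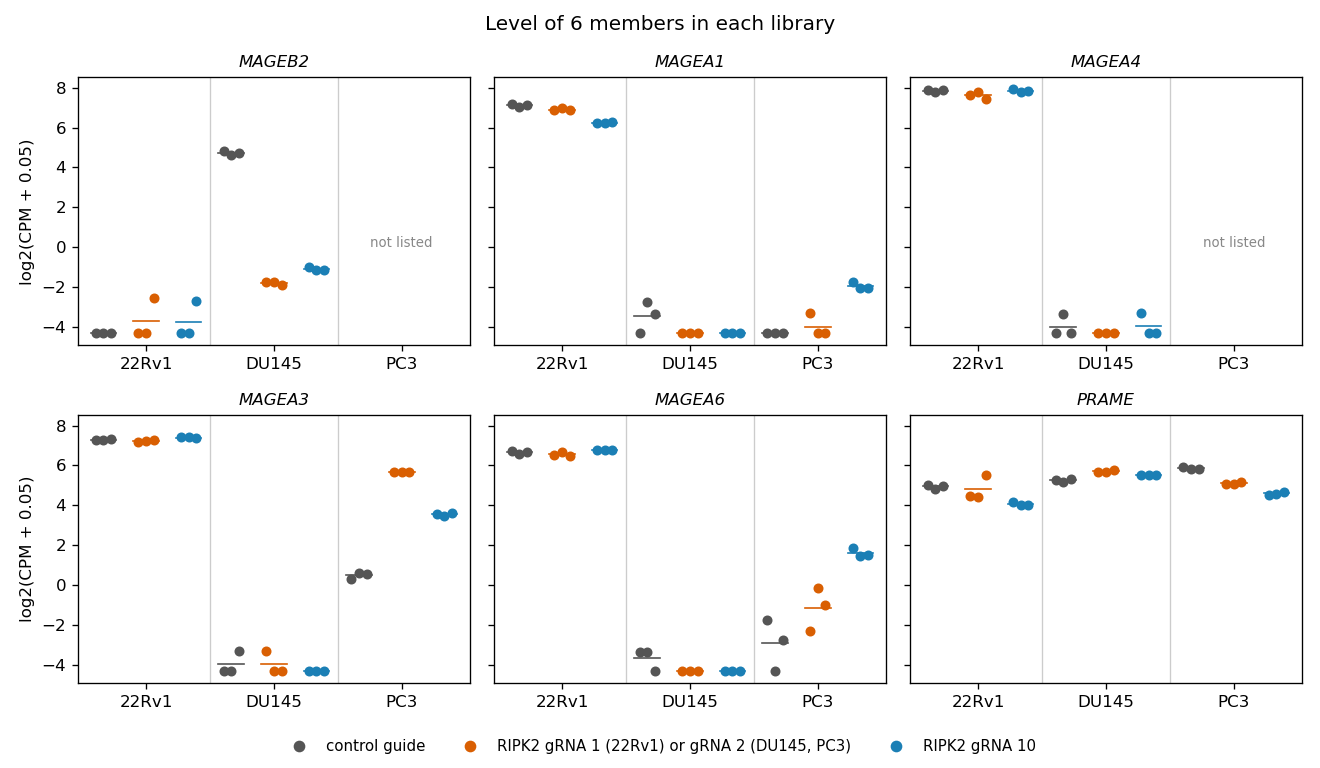
Level of 6 members in each of the 27 libraries; the vertical axis is log2(CPM + 0.05), each point is a library and each short line the mean of the 3 libraries of a group. MAGEB2 is high in the DU145 control alone, MAGEA1 and MAGEA4 are high in 22Rv1, MAGEA3 and MAGEA6 rise from low levels in PC3, and PRAME stays between 16.0 and 59.8 CPM in all libraries.

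MAGEB2 was nearly lost in DU145 with both RIPK2 guides. The 3 control libraries had 585, 521 and 534 reads, the gRNA 2 libraries 5, 5 and 4, and the gRNA 10 libraries 9, 8 and 8. Every knockout library therefore lay far below every control library. The knockout counts were above the 0 to 2 reads of the 22Rv1 libraries, a level where presence and absence were not told apart. The level fell from 26.4 ± 1.58 CPM to 0.238 ± 0.0144 CPM with gRNA 2 and 0.417 ± 0.0308 CPM with gRNA 10 (mean ± SD, n = 3), which is 0.901% and 1.58% of the control. The fitted log2 fold changes were -6.75 (SE 0.17) and -5.96 (SE 0.15). Without the third gRNA 2 library the gRNA 2 value was -6.71. Both members that could be fitted in DU145, MAGEB2 and PRAME, had knockout libraries that did not overlap the control libraries with either guide; so had 46.6% of the genes fitted with gRNA 2 and 68.6% with gRNA 10.

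The gRNA 2 and gRNA 10 libraries of DU145 were also compared. MAGEB2 was 0.79 lower on the log2 scale with gRNA 2 (SE 0.28), at 4 to 5 against 8 to 9 reads. The low MAGEB2 values of both groups led to the choice of members, so that difference is given without a test. For PRAME the choice did not use this contrast. By edgeR PRAME did not pass after adjustment, where 38.8% of the genes tested did, and its unadjusted p was under 0.05. It did not pass by DESeq2 either. The RIPK2 mRNA of the same groups differed widely, at 11.8 ± 1.77 CPM with gRNA 2 and 34.7 ± 1.51 CPM with gRNA 10. The genes tested nearest to MAGEB2 were NR0B1, 88.6 kb away, and RANBP1P1, 4570 kb away on the other side. NR0B1, a nuclear receptor corepressor, had log2 differences from control of -0.15 with gRNA 2 and 1.06 with gRNA 10 (edgeR BH-adjusted p = 0.773 and 0.0205), so it rose with gRNA 10 and did not pass with gRNA 2.

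MAGEA3 and MAGEA6 rose in PC3, and each rose furthest with a different guide. MAGEA3 had 24, 29 and 28 reads in the control libraries, 1019, 1025 and 1041 with gRNA 2, and 239, 228 and 253 with gRNA 10. The 3 groups were well apart. MAGEA3 rose from 1.34 ± 0.129 CPM to 50.7 ± 0.649 CPM with gRNA 2 (a log2 fold change of 5.23, SE 0.09, edgeR BH-adjusted p = 2.29e-28) and to 11.6 ± 0.591 CPM with gRNA 10 (3.10, SE 0.12, edgeR BH-adjusted p = 6.31e-20). Its level with gRNA 2 was also higher than with gRNA 10, by 2.13 on the log2 scale (edgeR BH-adjusted p = 1.47e-23).

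MAGEA6 had 5, 0 and 2 reads in the control libraries, 3, 17 and 9 with gRNA 2, and 75, 55 and 57 with gRNA 10. The gRNA 10 libraries lay above all others, while those of gRNA 2 overlapped the control. The gene passed the filter on low counts only through the gRNA 10 libraries, the group where it is high. Its p-values in PC3 therefore describe these reads and are no independent support. The log2 fold change was 4.62 with gRNA 10 (SE 0.46, edgeR BH-adjusted p = 1.89e-08) and 1.98 with gRNA 2 (SE 0.71, edgeR BH-adjusted p = 0.0210). The gRNA 2 call rested on few reads and was lost without control replicate 2, control replicate 3 or gRNA 2 replicate 2 (edgeR BH-adjusted p = 0.0662, 0.0703 and 0.144; 0.000989 to 0.144 over the alternatives). MAGEA6 was lower with gRNA 2 than with gRNA 10 by 2.64 on the log2 scale (edgeR BH-adjusted p = 6.7e-07), the opposite order to MAGEA3. With the counts of both genes added to 1 row, the log2 fold changes were 5.13 with gRNA 2 and 3.31 with gRNA 10 (edgeR BH-adjusted p = 2.24e-28 and 1.94e-21).

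The share of MAGEA6 in the reads of the pair showed the difference between guides within each library. In 22Rv1 it was 36.6% to 40.5% in all 9 libraries. In PC3 with gRNA 10 it was 23.9%, 19.4% and 18.4%, and with gRNA 2 it was 0.294%, 1.63% and 0.857%. The 95% Wilson intervals, which cover counting error only, ran from 14.5% to 28.9% for the gRNA 10 libraries and from 0.0999% to 2.60% for the gRNA 2 libraries, so they did not meet. The PC3 control libraries had 29 or 30 reads of the pair each and shares of 17.2%, 0% and 6.67%, too few reads to place them.

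**Figure D2:**
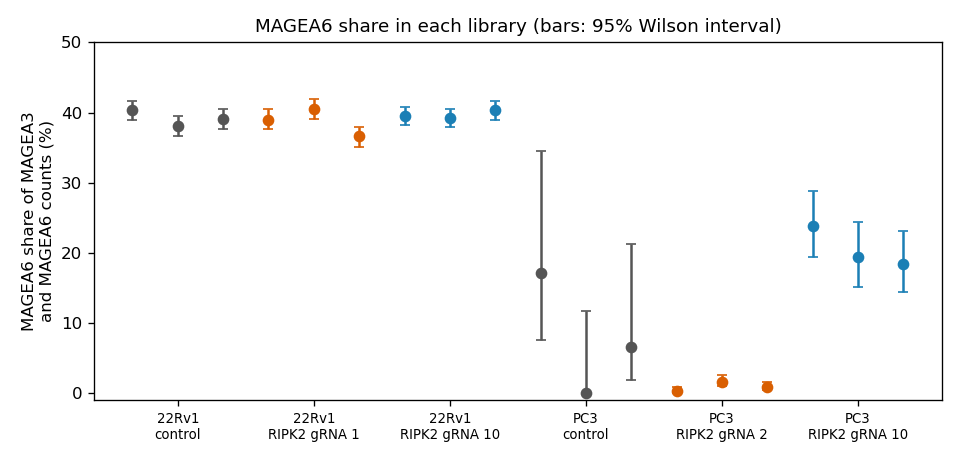
Share of MAGEA6 in the summed MAGEA3 and MAGEA6 reads of each 22Rv1 and PC3 library, in percent; points are libraries and bars their 95% Wilson intervals. The 22Rv1 libraries lie between 36.6% and 40.5%, the PC3 gRNA 10 libraries between 18.4% and 23.9%, and the PC3 gRNA 2 libraries at 1.63% or below.

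Of the tested genes around MAGEA3 and MAGEA6 in PC3, the cancer testis genes between them fell and others moved in both directions. MAGEA12, a type I MAGE gene 35.0 kb from the MAGEA3 start, had 37, 43 and 34 reads in the control libraries, 1, 0 and 4 with gRNA 2, and 12, 13 and 9 with gRNA 10. It fell with both guides (for log2 fold changes of -4.43 and -1.78, edgeR BH-adjusted p = 1.68e-10 and 1.32e-06). MAGEA12 passed the filter on low counts only through the control libraries, the group where it is high. Its p-values therefore describe these reads and are no independent support. CSAG1, a cancer testis gene 28.7 kb from the MAGEA3 start, fell from 22 to 28 reads to 0 to 2 with gRNA 2, at least 8.41-fold lower taking 3 reads per library as the floor, and to 11 to 14 with gRNA 10 (a log2 fold change of -1.06, edgeR BH-adjusted p = 0.00136). GABRA3, a GABA receptor subunit 533 kb before MAGEA3, had 546 to 622 reads in the control, 3 to 4 with gRNA 2 and 86 to 111 with gRNA 10 (-7.41 and -2.66, edgeR BH-adjusted p = 1.26e-25 and 8.89e-22). Beyond MAGEA6, the centrin gene CETN2 fell with gRNA 2 and rose with gRNA 10 (-0.53 and 0.62, edgeR BH-adjusted p = 2.11e-10 and 6.19e-13). ZNF185, a LIM domain gene 132 kb from MAGEA6, rose with both guides (0.85 and 0.90, edgeR BH-adjusted p = 1.29e-17 and 1.16e-18), as did the chromatin gene HMGB3, 1720 kb before MAGEA3 (0.10 and 0.60, edgeR BH-adjusted p = 0.0298 and 2.02e-14). In 22Rv1, where MAGEA12 and CSAG1 had control levels of 50.4 and 32.0 CPM against 1.89 and 1.24 CPM in PC3, MAGEA12 moved in opposite directions with the guides: -0.30 with gRNA 1 and 0.34 with gRNA 10 (edgeR BH-adjusted p = 0.0267 and 0.0177). CSAG1 was at 0.06 and -0.09 there (edgeR BH-adjusted p = 0.587 and 0.453).

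**Figure D3:**
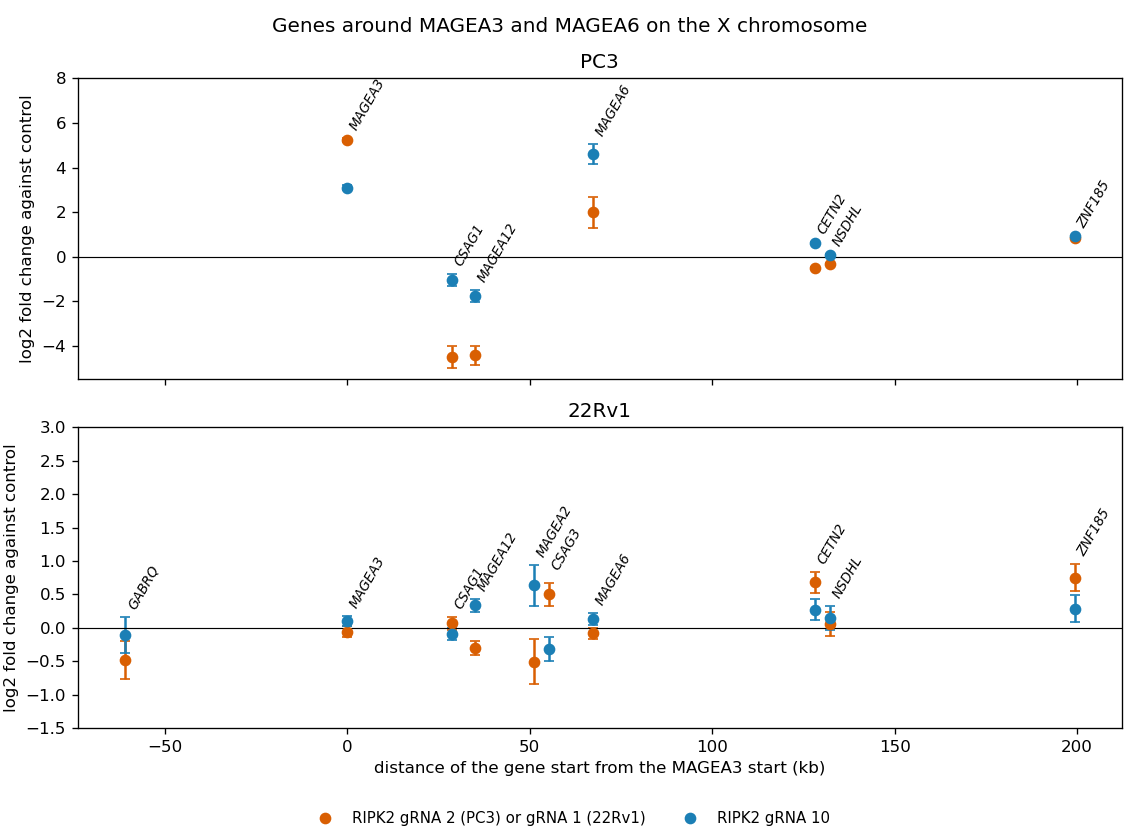
Fitted log2 fold change against control (vertical axis) of tested genes that reach 1 CPM as the mean of some group, by the distance of their lower coordinate from that of MAGEA3 in kb (horizontal axis), in PC3 and 22Rv1; bars are 1 SE. In PC3, MAGEA3 and MAGEA6 lie above 0 and CSAG1 and MAGEA12 between them lie below 0, while in 22Rv1, on a narrower axis, MAGEA3 and MAGEA6 lie near 0.

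In 22Rv1, which had the highest MAGE levels, MAGEA1 fell and the 3 other expressed MAGE members did not pass the threshold with either guide. MAGEA1, which binds the transcriptional regulator SKIP, had 2713, 2462 and 2657 reads in the control libraries, 2216, 2315 and 1976 with gRNA 1, and 1449, 1437 and 1513 with gRNA 10. The groups did not overlap in CPM. MAGEA1 fell from 139.7 ± 6.56 CPM to 75.6 ± 2.00 CPM with gRNA 10 (a log2 fold change of -0.89, SE 0.08, edgeR BH-adjusted p = 1.18e-05). With gRNA 1 it was at 120.1 ± 4.27 CPM (-0.22 on the log2 scale, SE 0.08, edgeR BH-adjusted p = 0.0438), a call that was lost in 11 of 16 alternatives (edgeR and DESeq2 adjusted p from 0.0131 to 0.143). Its level was lower with gRNA 10 than with gRNA 1, by 0.67 on the log2 scale (edgeR BH-adjusted p = 0.000118).

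MAGEA4, whose protein stabilises the DNA damage ubiquitin ligase RAD18, had the most reads of any member: 4411, 4150 and 4405 in the control, 3797, 4033 and 2888 with gRNA 1, and 4690, 4339 and 4401 with gRNA 10. Its log2 differences from control were -0.23 with gRNA 1 (SE 0.10, edgeR BH-adjusted p = 0.0754; 0.0366 without gRNA 1 replicate 2, and 0.0366 to 0.169 over the alternatives) and -0.0034 with gRNA 10 (SE 0.10, edgeR BH-adjusted p = 0.982). The antisense gene MAGEA4-AS1 had 71 to 129 reads in the control, 71 to 177 with gRNA 1 and 49 to 57 with gRNA 10, and whether counting used the strand is not given. MAGEA3 differed from control by -0.06 with gRNA 1 and 0.11 with gRNA 10 (edgeR BH-adjusted p = 0.568 and 0.306). MAGEA6 differed by -0.08 and 0.14 (edgeR BH-adjusted p = 0.449 and 0.239). By this test 1 of 5 members passed with gRNA 1 (lower; 48.5% of all genes tested passed in either direction), 2 of 5 with gRNA 10 (both lower; 40.6%) and 2 of 5 between the guides (35.6%). The luminal prostate markers, 10 of 10 listed, summed to 2580 to 2620 CPM in the control libraries, 1510 to 1820 with gRNA 1 and 1680 to 1700 with gRNA 10; their part in the MAGE values was not tested.

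PRAME was expressed in each line, and against the control it moved down in PC3, up in DU145 and down in 22Rv1 with gRNA 10. In PC3 the control libraries had 1199, 1150 and 1148 reads, the gRNA 2 libraries 677, 686 and 735, and the gRNA 10 libraries 474, 495 and 534. The 3 groups did not overlap. PRAME fell from 58.0 ± 1.59 CPM to 34.5 ± 1.60 CPM with gRNA 2 (a log2 fold change of -0.75, SE 0.05, edgeR BH-adjusted p = 1.16e-13) and to 24.1 ± 1.40 CPM with gRNA 10 (-1.27, SE 0.05, edgeR BH-adjusted p = 4.87e-19). The gRNA 2 level was 0.51 higher than the gRNA 10 level on the log2 scale (edgeR BH-adjusted p = 3.19e-09). In PC3 all 3 members that were tested passed in each comparison, MAGEA6 among them only through the group where it is high, where 63.6% (gRNA 2), 73.5% (gRNA 10) and 73.4% (between guides) of all genes tested did. The luminal markers, 8 of 10 listed in PC3, summed to 1520 to 1570 CPM in the control, 1050 to 1090 with gRNA 2 and 1170 to 1230 with gRNA 10; their part in these values was not tested.

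In DU145, PRAME had 798, 759 and 816 reads in the control libraries, 1019, 1047 and 1001 with gRNA 2, and 919, 916 and 901 with gRNA 10. All 6 knockout libraries lay above the control, at 52.3 ± 2.66 and 45.7 ± 0.590 CPM against 38.2 ± 1.72 CPM. The log2 differences were 0.45 and 0.26, given without a test. Between the guides PRAME differed by 0.19 (edgeR BH-adjusted p = 0.0719), and this difference passed only without gRNA 2 replicate 2 (0.22, edgeR BH-adjusted p = 0.0493; 0.0493 to 0.201 over the alternatives).

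In 22Rv1, PRAME had 613, 530 and 588 reads in the control libraries, 416, 399 and 783 with gRNA 1, and 342, 313 and 311 with gRNA 10. The third gRNA 1 library, the one with many mitochondrial reads, was the highest of the 9 and the other 2 of its group were below the control. PRAME fell from 30.9 ± 2.17 CPM to 16.6 ± 0.914 CPM with gRNA 10 (a log2 fold change of -0.90, SE 0.25, edgeR BH-adjusted p = 0.0157). That call was lost without gRNA 10 replicate 2 or 3 (-0.87 in both, edgeR BH-adjusted p = 0.0516 and 0.0533; 1.51e-06 to 0.0533 over the alternatives). With gRNA 1 PRAME was at 30.1 ± 14.2 CPM (-0.04, SE 0.25, edgeR BH-adjusted p = 0.904), and without the third library at -0.51 (edgeR BH-adjusted p = 0.000548; 0.000548 to 0.994 over the alternatives). The gRNA 1 level was 0.85 above that of gRNA 10 (edgeR BH-adjusted p = 0.0229) and, without the third library, 0.38 above it (edgeR BH-adjusted p = 0.00643); the call was lost without gRNA 10 replicate 1, 2 or 3 (edgeR BH-adjusted p = 0.0544, 0.0730 and 0.0740), with no filter (0.0518) and with only the groups compared (0.0713).

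**Figure D4:**
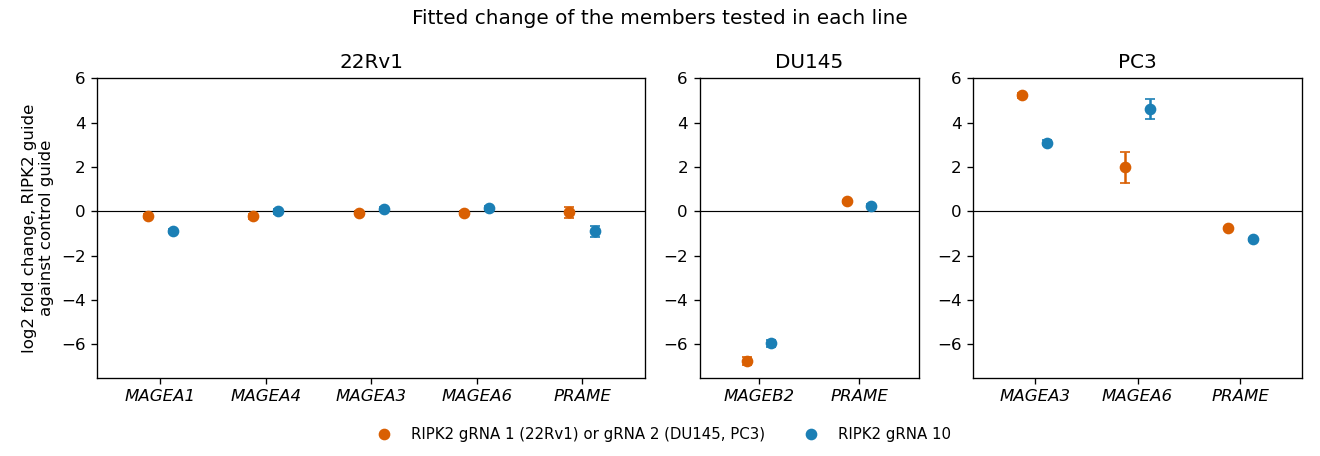
Fitted log2 fold change of each tested member against the control of its line (vertical axis), by gene; points are guides and bars 1 SE. MAGEB2 in DU145 and MAGEA3 and MAGEA6 in PC3 stand several log2 units from 0, and PRAME lies below 0 in PC3, above 0 in DU145 and below 0 with gRNA 10 in 22Rv1.

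Genes beside PRAME on chromosome 22 did not follow a single pattern in PC3. The zinc finger gene ZNF280B, whose lower coordinate is 63.3 kb from that of PRAME, had 108, 118 and 116 reads in the control, 87, 76 and 63 with gRNA 2, and 0 in each gRNA 10 library, at least 39.3-fold lower. It fell with gRNA 2 as well (a log2 fold change of -0.61, edgeR BH-adjusted p = 0.000232). ZNF280A, 34.0 kb from PRAME, had 6 to 10 reads in the control, 3 to 5 with gRNA 2 and 0 with gRNA 10. GNAZ, a G protein alpha subunit 523 kb away, rose by 0.42 and 0.80 (edgeR BH-adjusted p = 4.48e-06 and 3.08e-12). In 22Rv1, ZNF280B differed from control by -0.37 with gRNA 1 and 0.09 with gRNA 10 (edgeR BH-adjusted p = 0.0249 and 0.594). In DU145, ZNF280B rose with both guides (0.51 and 0.47, edgeR BH-adjusted p = 0.0290 and 0.0347), the direction of PRAME there. ZNF280A, GNAZ and BCR rose in DU145 with gRNA 10 (0.96, 1.24 and 0.48, edgeR BH-adjusted p = 0.000587, 0.00063 and 0.00246).

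The effect of gRNA 10, the RIPK2 guide used in all lines, was compared between PC3 and 22Rv1 in a fit over the 27 libraries. It differed for MAGEA3, which was tested in each of these lines, and 47.6% of all genes differed. The PC3 effect exceeded the 22Rv1 effect by 2.96 for MAGEA3 (SE 0.15, edgeR BH-adjusted p = 1.23e-13) and by 4.45 for MAGEA6 (SE 0.46, edgeR BH-adjusted p = 3.82e-08), both on the log2 scale. The MAGEA6 value rests on 0 to 5 reads in the PC3 control libraries. In the PC3 fit MAGEA6 was kept only through the gRNA 10 libraries, the group where it is high. Its p-value therefore describes these reads and is no independent support. MAGEA1 entered this fit through its 22Rv1 reads alone, so no test is given: in PC3 it had 0 reads in each control library and 5, 4 and 4 with gRNA 10, at least 1.4-fold higher against a floor of 3 reads per library. For PRAME the effects, -1.27 in PC3 and -0.90 in 22Rv1, differed by -0.41 (SE 0.24, edgeR BH-adjusted p = 0.166), so a difference was not detectable.

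MAGEA10, MAGEC1 and MAGEC2 were at or near 0 in every library. MAGEA10 had 1 read in 1 control library of 22Rv1, MAGEC2 had 1 read in each of 3 knockout libraries of 22Rv1, and MAGEC1 had 1 read in 1 gRNA 2 library of PC3. MAGEB2 in 22Rv1 had 2 reads in each of 2 knockout libraries and 0 in the other 7. All of these lie under the 3 reads that a count of 0 allows, so presence and absence were not told apart at this depth.

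The rest of the family was described by gene lists. The counts of each list below are to be read beside the share of all genes tested that passed in either direction. With gRNA 1 and gRNA 10 it was 48.5% and 40.6% in 22Rv1. With gRNA 2 and gRNA 10 it was 34.0% and 40.0% in DU145 and 63.6% and 73.5% in PC3. Of 18 other type I MAGE genes, 11 were listed and 4 tested in 22Rv1, where 1 rose and 1 fell with gRNA 1 and 1 rose with gRNA 10. The 4 tested in PC3 had 1 higher and 1 lower with gRNA 2, and 2 higher and 1 lower with gRNA 10, with medians of -1.24 and 1.29 (log2) against 0.0059 and 0.0084 over all genes. MAGEB17 rose in PC3 from 0.961 ± 0.522 to 2.89 ± 0.668 and 5.86 ± 0.339 CPM (for log2 fold changes of 1.58 and 2.60, edgeR BH-adjusted p = 1.29e-05 and 3e-10). MAGEA11, named after its values were seen and so given without a test, had 0, 5 and 5 reads in the PC3 control, 2, 0 and 0 with gRNA 2, and 165, 159 and 168 with gRNA 10. In DU145 0 of the 18 could be tested.

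Type II MAGE genes, which are expressed in many tissues, were tested in each line. In 22Rv1, 8 of the 11 were tested: 2 rose and 3 fell with gRNA 1, and 0 rose and 4 fell with gRNA 10. NDN, the imprinted growth suppressor necdin, fell from 68.0 to 14.3 and 6.91 CPM (for log2 fold changes of -2.25 and -3.30, edgeR BH-adjusted p = 5.53e-08 and 7.26e-09). MAGEL2, an imprinted neighbour of NDN, fell from 15.7 to 6.91 and 0.653 CPM (-1.19 and -4.57, edgeR BH-adjusted p = 0.0240 and 3.67e-05). In DU145, 1 of 6 rose and 2 fell with gRNA 2 and 5 rose with gRNA 10, where 34.0% and 40.0% of all genes passed. In PC3, 3 of 6 fell with gRNA 2, and 2 rose and 3 fell with gRNA 10; MAGED1 was at -0.59 and -0.12 (edgeR BH-adjusted p = 4.01e-15 and 0.00247).

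Other cancer testis genes had few tested members. Of 48 further X-linked ones, 8 were tested in 22Rv1 (1 higher and 2 lower with gRNA 1, 2 lower with gRNA 10), 2 in DU145 (1 lower with gRNA 2, 0 passed with gRNA 10) and 1 in PC3, which was CSAG1. CT45A10 fell in 22Rv1 with both guides (-1.25 and -0.58, edgeR BH-adjusted p = 0.000438 and 0.0262), and its reads may be shared with near-identical copies. Of 40 autosomal cancer testis and germ cell genes, 17 were tested in 22Rv1 (4 higher and 6 lower with each guide), 14 in DU145 (5 lower with gRNA 2; 2 higher and 3 lower with gRNA 10) and 10 in PC3 (6 higher and 2 lower, then 5 higher and 4 lower). TEX15, a meiotic recombination gene, rose in 22Rv1 (1.59 and 2.45, edgeR BH-adjusted p = 1.82e-05 and 7.88e-07), while the testis bromodomain gene BRDT fell in DU145 (-1.12 and -0.68, edgeR BH-adjusted p = 0.000491 and 0.00533).

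Regulators and partners of these genes were described in the same way. Of 23 regulators (DNA methyltransferases, TET enzymes, histone modifiers, the E2F6 complex and ETS factors), 22 were tested in 22Rv1 (2 higher and 6 lower with gRNA 1, 7 higher and 2 lower with gRNA 10). All 23 were tested in DU145 (6 and 4, then 5 and 3) and in PC3 (11 and 4, then 8 and 6), and the 6 medians ran from -0.0423 to 0.136. ETS1 rose in DU145 (0.88 and 0.60, edgeR BH-adjusted p = 4.9e-05 and 0.000285), ETS2 rose in 22Rv1 (0.46 and 1.00, edgeR BH-adjusted p = 0.00273 and 1.45e-05), and TET1, which oxidises methylated cytosine, fell in PC3 (-0.27 and -1.33, edgeR BH-adjusted p = 0.0339 and 8.35e-11). Of 14 genes listed as partners or targets of these proteins, all were tested, and 1 rose and 2 fell, then 1 and 1, in 22Rv1. In DU145 2 rose and 2 fell with gRNA 2 and 4 and 4 with gRNA 10, and in PC3 7 rose and 3 fell, then 8 and 3. Of all genes tested, 34.0% and 40.0% passed in DU145 and 63.6% and 73.5% in PC3. PRKAA1, the kinase subunit targeted by MAGE-A3 and MAGE-A6, rose in DU145 (0.74 and 0.97, edgeR BH-adjusted p = 0.000415 and 4.52e-05). MAGEA3 and MAGEA6 had 0 to 1 reads per library in that line. In PC3, PRKAA1 was at 74.2% of the control level with gRNA 2 and at 128% with gRNA 10. A relation of PRKAA1 to the MAGE values was not tested. RARA, the retinoic acid receptor bound by PRAME, rose in PC3 (0.30 and 0.72, edgeR BH-adjusted p = 0.000172 and 1.1e-11).

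Of 10 retinoic acid targets, 6 were tested in 22Rv1 (3 higher and 2 lower with gRNA 1, 2 and 2 with gRNA 10), 8 in DU145 (2 and 1, then 3 and 1) and 5 in PC3 (3 and 2 with each guide). In PC3 the retinoic acid hydroxylase gene CYP26B1 rose (3.57 and 2.15, edgeR BH-adjusted p = 1.4e-19 and 1.91e-12) and CRABP2, which carries retinoic acid to the nucleus, fell (-0.999 and -0.91, edgeR BH-adjusted p = 3.27e-17 and 1.07e-16). TGM2, a transglutaminase, rose in DU145 (2.19 and 0.94, edgeR BH-adjusted p = 6.76e-06 and 0.00062), and DHRS3, a retinaldehyde reductase, rose in 22Rv1 (1.87 and 1.02, edgeR BH-adjusted p = 1.14e-06 and 8.97e-05).

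The genes whose log2 CPM followed a member most closely across libraries are given as a description, since the libraries share lines and guides. MAGEB2, listed in 2 lines, was followed over 18 libraries by FBXL21P (Pearson r = 0.982), ERICH5 (0.961) and STK31 (0.955). In DU145 FBXL21P went from 2.73 CPM to 0.156 and 0.150 CPM, ERICH5 from 8.45 to 0.433 and 0.817 CPM, and STK31, a testis kinase, from 9.45 to 1.33 and 1.32 CPM. Over 27 libraries MAGEA1 was followed by MEP1A (0.994), MAGEA3 by the prostate transcript PCAT14 (0.979), MAGEA6 by DLGAP1 (0.984) and PRAME by RNF8 (0.897). MAGEA4, over 18 libraries, was followed by MAGEA6 (0.999). MAGEA1 and MAGEA4 had 0 to 5 reads in every library outside 22Rv1, so their values follow the step between lines.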

How the data were processed

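RNA of 3 cell lines was sequenced in 27 libraries, 9 per line and 3 per group, grouped by their titles. The deposited values are read counts per gene symbol, 1 table per line, with no normalization by the authors; FastQC, STAR and edgeR are named and hg38 is the build, per the submitters' processing notes. The gene annotation, the treatment of reads with several matches and the use of strand in counting are not given in the sources used here.

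Each line was fitted by itself with edgeR 4.0.16 (R 4.3.3, limma 3.58.1): filterByExpr with its defaults (minimum count 10, minimum total 15), TMM factors, robust quasi-likelihood fit over its 9 libraries, two-sided F tests and Benjamini-Hochberg adjustment over all genes tested (15198 in 22Rv1, 14908 in DU145, 14718 in PC3), with a threshold of 0.05. A fit over the symbols of all 3 tables tested the gRNA 10 effect between lines. RPKM used exon lengths of GENCODE 29. The fits were tested on simulated data with known changes. The members and gene lists were chosen with earlier results of these data known. Beside the members, the named genes are the 2 per list and line with the largest change common to both guides (past the threshold in 1 direction, a group mean of 1 CPM or more), up to 3 tested genes on each side of a member, and the 3 most correlated genes. Alternatives were RLE factors, DESeq2 1.42.0, other filters, fewer groups, a replicate block, the pair MAGEA3 and MAGEA6 summed, and each replicate left out. Counting error is set by the reads per gene, given beside the values.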

Additional observations from a re-analysis of the deposited data

Results flagged for a closer look

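The gRNA 10 effect differed between PC3 and 22Rv1 for MAGEA3 and MAGEA6 by the interaction test. For MAGEA3 the difference was 2.96 on the log2 scale and for MAGEA6 4.45. MAGEA6 had 0 to 5 reads in the PC3 control libraries and was kept in the PC3 fit only through the gRNA 10 libraries. The p-values of MAGEA6 are therefore no independent support. Over the alternatives the MAGEA3 difference stayed past the threshold (edgeR BH-adjusted p from 2.01e-14 to 1.58e-10), as did that of MAGEA6 (9.78e-09 to 1.7e-06). For MAGEA1 the fitted difference was 6.03, but the gene had 0 to 5 reads per PC3 library and entered the fit through its 22Rv1 reads alone, so nothing is read from that value.

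PRAME moved in opposite directions with gRNA 10 in different lines. The 22Rv1 effect minus the DU145 effect was -1.15 on the log2 scale, and the DU145 effect minus the PC3 effect was 1.52. In each line all 3 gRNA 10 libraries lay on the same side of the 3 control libraries. In DU145 this held for 68.6% of the genes fitted with gRNA 10, so it does not set PRAME apart there. For 22Rv1 and PC3 that share was not taken, and 40.6% and 73.5% of all genes tested passed with gRNA 10 by edgeR. Neither difference between lines was tested, because the choice of members used the DU145 contrast.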

How the results depend on the processing

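Of 520 values of single members under the alternatives (34 results), 483 kept their direction and their side of the threshold. In 22Rv1 with gRNA 1 the count of members called was 0 with no filter, with at least 10 counts in every library, with only the groups compared and with the replicate block, and 0 to 2 when a replicate was left out; with gRNA 10 it was 1 to 2 when a replicate was left out. Between the 22Rv1 guides it was 1 with no filter and with only the groups compared, and 1 to 4 when a replicate was left out. In DU145 the members without overlap were 1 with at least 10 counts in every library, for each guide, since MAGEB2 was not kept; between the guides the count was 0 to 1 when a replicate was left out. In PC3 with gRNA 2 it was 2 to 3.

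Between the 22Rv1 guides MAGEA3 and MAGEA4 each passed in 1 alternative and MAGEA6 in 3, against none in the reported fit. PRAME in 22Rv1 with gRNA 1 turned to 0.14 without gRNA 1 replicate 1 to 0.15 without gRNA 1 replicate 2, and was -0.51 without gRNA 1 replicate 3. MAGEA4 in 22Rv1 with gRNA 10, near 0, turned to 0.0087 with only the groups compared, 0.0083 and 0.0092 without control replicate 1 or 3, 0.0022 without gRNA 1 replicate 3, and 0.020 and 0.012 without gRNA 10 replicate 2 or 3; it was -0.034 without gRNA 10 replicate 1. The cause was not tested.

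Replicate numbers of the titles did not pair the libraries: deviations of same-numbered libraries correlated above 0.1 in 1 of 9 pairs in 22Rv1 and in 0 of 9 in DU145 and PC3. In some groups the library names carry other numbers, and pairing by those was not examined. With the replicate block MAGEA1 in 22Rv1 with gRNA 1 had an edgeR adjusted p of 0.0823. Depth limits MAGEA6 in PC3 and MAGEB2 in the DU145 knockouts, which rest on 0 to 75 and 4 to 9 reads. Over all genes, the calls against control in DU145 with gRNA 2 went from 5072 to 3335 with only the groups compared, and to 3259 and 3329 without control replicate 1 or 3; with gRNA 10 they went from 5956 to 9749 with only the groups compared.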

Other observations

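Markers of the prostate and of epithelia were measured beside the antigens. Of all genes tested, 48.5% passed with gRNA 1 and 40.6% with gRNA 10 in 22Rv1. With gRNA 2 and gRNA 10 the share was 34.0% and 40.0% in DU145 and 63.6% and 73.5% in PC3. Of 10 luminal prostate markers, all tested in 22Rv1, 7 fell and 0 rose with gRNA 1, and 2 rose and 7 fell with gRNA 10. STEAP1, a metalloreductase of prostate cells, fell there (for log2 fold changes of -2.03 and -1.57, edgeR BH-adjusted p = 3.92e-07 and 2.15e-06). In PC3, 3 of 6 rose and 2 fell with gRNA 2, and 3 rose and 3 fell with gRNA 10; the protease gene TMPRSS2 rose (1.51 and 3.33, edgeR BH-adjusted p = 8.69e-18 and 1.95e-28). In DU145, 1 of 4 rose and 1 fell, then 2 rose and 1 fell.

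Of 7 epithelial markers, 5 rose and 1 fell with gRNA 1 in 22Rv1 and 3 rose and 2 fell with gRNA 10. In DU145 5 rose and 1 fell with gRNA 2, and 2 rose and 1 fell with gRNA 10; the luminal keratin KRT8 rose with both (1.28 and 1.07, edgeR BH-adjusted p = 0.000323 and 0.000559). In PC3 2 rose and 2 fell, then 4 rose and 2 fell. Of 11 blood, endothelial and fibroblast markers 3 were tested in each line, and the summed level of the list was 5.75 to 63.8 CPM over all libraries. In PC3 PECAM1, an endothelial adhesion gene, rose (2.28 and 1.89, edgeR BH-adjusted p = 9.02e-15 and 1.23e-12) and PDGFRB, a growth factor receptor of mesenchymal cells, fell (-2.42 and -3.87, edgeR BH-adjusted p = 6.46e-07 and 4.43e-09). PDGFRB passed the filter on low counts only through the control libraries, where it is high, so its p-values describe these reads.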
